A study of Mus musculus with 36 samples.

Results

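The comparison described here is the 4 h step across lights off in the liver of mice on a high fat diet, taken as the 3 samples collected at ZT16 against the 3 collected at ZT12. Times are in zeitgeber hours (ZT), where ZT0 is lights on. Under the 12-h light and dark cycle used, lights went off at ZT12 and ZT16 lies in the early dark phase. The 6 samples were chosen by their diet and time labels and not by any measured value, and they are 6 of the 36 samples in the series.

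All mice were C57BL/6J animals aged 16 weeks that ate at will, and their sex is not given in the labels. The high fat diet, with 60% of its energy as fat, was eaten for 10 weeks, and the other animals ate normal chow. Livers were collected every 4 h at 6 times on each diet, with 3 samples in each of the 12 groups. The 3 chow samples at ZT16 and the 3 chow samples at ZT12 serve below as the same step on the other diet. The labels number the samples of a group without saying whether each came from its own animal, so the p-values rest on the spread between samples within the 12 groups, which may be technical.

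The circadian clock of a liver cell is a feedback loop of transcription. CLOCK and ARNTL (BMAL1) bind E-boxes and drive the period, cryptochrome, REV-ERB and PAR bZIP genes. The period and cryptochrome proteins then inhibit CLOCK and ARNTL, while the REV-ERB proteins, encoded by Nr1d1 and Nr1d2, repress Arntl through sites they share with the ROR activators. Lights off is also when a mouse, a nocturnal animal, normally begins most of its feeding. No measure of when these mice ate was used here, and the design does not separate clock control from food intake.

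RNA was measured on whole-transcript Affymetrix arrays, with 1 array per sample. The deposited values are linear intensities, and all levels below are log2(intensity + 16), so that a difference of 1 is a 2-fold change on that scale. The offset of 16 damps noise in dim genes and understates their change. After a filter at the 30th percentile of mean intensity, a level of 6.11, 13956 genes were tested. Each difference is ZT16 minus ZT12 from a limma fit to all 36 arrays, given with its standard error (SE), and a gene was called at a Benjamini-Hochberg adjusted p under 0.05. The 6 arrays had similar median intensities, between 83.1 and 88.9. Replicates correlated across genes at 0.991 to 0.995 within ZT16 and at 0.987 to 0.988 within ZT12, and arrays of different times at 0.984 to 0.990. Values of different genes on an array are not compared with each other as amounts of RNA.

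On the high fat diet, 102 genes rose and 43 fell between ZT12 and ZT16, which is 0.731% and 0.308% of the genes tested, or 1.04% either way. The median size of a called change was 0.51 in log2 units, and the median difference over all genes tested was 0.01. Of the 13956 differences, 7395 were above 0 and 6561 below 0, which is the reference for the signs in gene lists below. In 5 genes (0.0358%) the rise was at least 2-fold, and these were Arntl, Ppp1r3c, Avpr1a, Chka and Clpx. The 5 genes that fell at least 2-fold (0.0358%) were Ciart, Lpin1, Dbp, Zbtb16 and Nr1d1. In each of the 145 called genes, the 3 ZT16 values lay wholly above or wholly below the 3 ZT12 values. Over all genes tested, 11.1% had every ZT16 value above every ZT12 value and 7.47% had every one below. Without an adjustment of the p-values, 1017 genes (7.29%) were higher and 463 (3.32%) were lower at p under 0.05. No called gene with a 2-fold change crossed the filter level between the groups, so no gene was switched on or off by that measure.

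Single arrays moved the number of calls. Leaving out ZT16 replicate 3 gave 36 genes higher and 10 lower, and leaving out ZT16 replicate 2 gave 46 and 17. Without ZT12 replicate 3 there were 44 and 14, and without ZT12 replicate 2 there were 58 and 19. Leaving out ZT16 replicate 1 gave 86 and 18, and leaving out ZT12 replicate 1 gave 103 and 30. Each called gene was rerun under 18 or 19 alternative fits at the same threshold, which changed the scaling, the offset, the filter, the variance model or the arrays used. Every statement below that a call held or was lost refers to these fits. The direction of the 145 called genes was the same in each of these fits, and 34 of them passed an adjusted p under 0.05 in each.

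**Figure D1:**
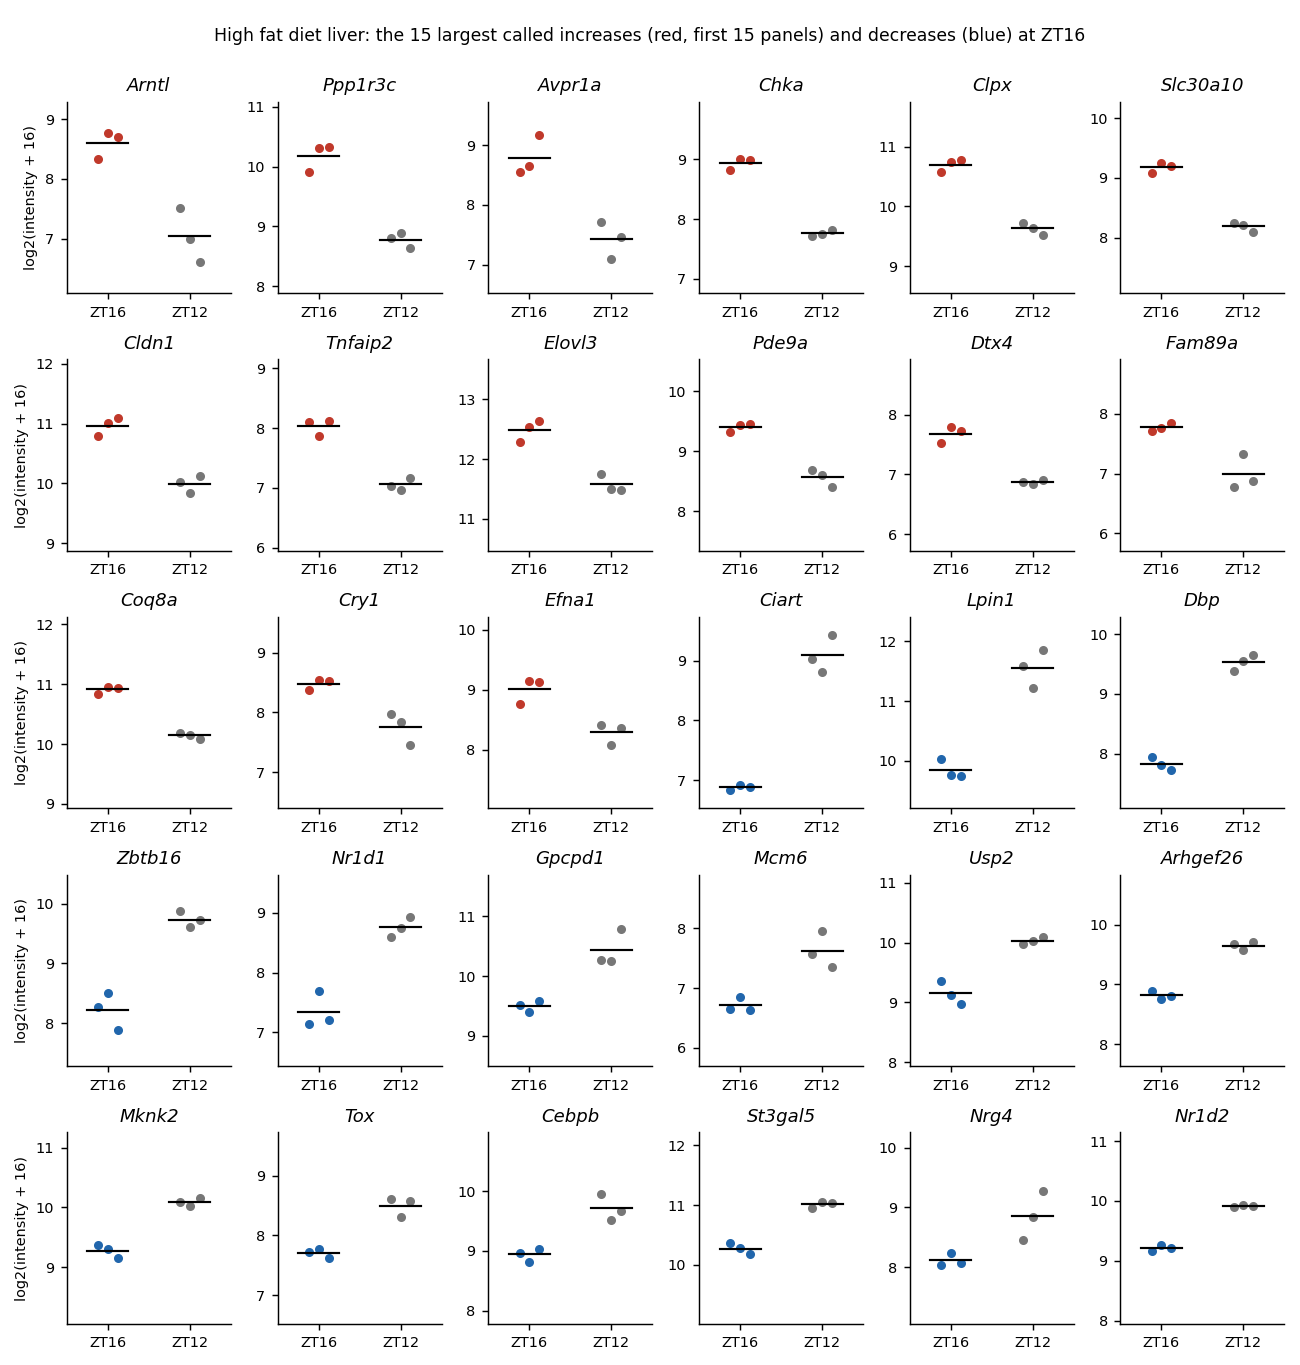
The 15 called genes with the largest rises (red, first 15 panels) and the 15 with the largest falls (blue) at lights off on the high fat diet, with the log2(intensity + 16) level of each sample on the vertical axis. Points are single samples, short lines are group means, ZT16 is left of ZT12, and all panels span the same range of log2 units; in every gene drawn the 3 ZT16 points and the 3 ZT12 points do not overlap.

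The promoters of 5 core clock and clock output genes are printed first, because these lists held some of the largest changes. The 5 windows were picked because letters that the clock proteins are known to bind can be read in them, and not by the size of the change. They are RefSeq promoter windows on the GRCm38.p6 build, each of 300 bases, from 250 bases before a transcript start to 50 bases after it, written 5′ to 3′ on the strand of the gene. Capitals mark the E-box CACGTG, the D-box TTATGTAA (bound by DBP and NFIL3) and the ROR and REV-ERB site AGGTCA, each searched on both strands, so that a D-box on the other strand appears as its reverse complement.
Ciart (chr3:95882179-95882478, minus strand): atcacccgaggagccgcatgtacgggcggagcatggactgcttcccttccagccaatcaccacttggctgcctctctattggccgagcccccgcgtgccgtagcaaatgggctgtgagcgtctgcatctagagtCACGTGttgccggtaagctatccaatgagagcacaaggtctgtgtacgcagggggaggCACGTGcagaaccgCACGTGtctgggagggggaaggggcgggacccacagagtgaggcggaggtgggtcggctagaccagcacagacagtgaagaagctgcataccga
Cry1 (chr10:85185005-85185304, minus strand): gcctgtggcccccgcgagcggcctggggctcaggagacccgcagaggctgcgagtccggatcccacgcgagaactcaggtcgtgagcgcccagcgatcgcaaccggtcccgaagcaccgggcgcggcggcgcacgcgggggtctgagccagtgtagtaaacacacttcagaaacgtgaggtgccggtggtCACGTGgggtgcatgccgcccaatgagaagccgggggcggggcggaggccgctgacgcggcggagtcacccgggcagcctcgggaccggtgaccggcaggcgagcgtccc
Per3 (chr4:151044616-151044915, minus strand): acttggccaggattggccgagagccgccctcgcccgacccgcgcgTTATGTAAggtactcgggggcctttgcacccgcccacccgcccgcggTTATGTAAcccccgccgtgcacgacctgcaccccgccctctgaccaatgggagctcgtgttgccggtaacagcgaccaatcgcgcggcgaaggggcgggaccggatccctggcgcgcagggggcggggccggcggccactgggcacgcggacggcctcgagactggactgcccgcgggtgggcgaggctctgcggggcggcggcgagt
Coq10b (chr1:55052520-55052819, plus strand): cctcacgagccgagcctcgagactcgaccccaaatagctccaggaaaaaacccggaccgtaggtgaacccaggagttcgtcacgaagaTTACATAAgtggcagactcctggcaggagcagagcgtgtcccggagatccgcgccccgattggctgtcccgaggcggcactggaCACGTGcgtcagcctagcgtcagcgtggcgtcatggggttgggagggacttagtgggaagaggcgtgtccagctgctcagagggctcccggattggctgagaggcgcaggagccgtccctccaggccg
Arntl (chr7:113207261-113207560, plus strand): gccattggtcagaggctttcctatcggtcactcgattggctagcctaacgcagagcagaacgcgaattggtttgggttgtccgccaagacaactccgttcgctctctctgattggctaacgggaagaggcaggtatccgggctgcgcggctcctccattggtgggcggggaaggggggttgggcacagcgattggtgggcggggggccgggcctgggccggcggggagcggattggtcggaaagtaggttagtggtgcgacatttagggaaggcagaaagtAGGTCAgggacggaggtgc
The Ciart window holds 3 E-boxes, which begin 116, 58 and 44 bases before the start, and the Cry1 window holds 1, which begins 60 bases before it. In the Per3 window 2 D-boxes begin 205 and 158 bases before the start. The Coq10b window has a D-box on the other strand, 162 bases before the start, and an E-box 78 bases before it. In the Arntl window printed, the AGGTCA site begins 31 bases after the start, and another window of Arntl holds none of the marked motifs. Windows were found for all 13 called genes of the core clock and clock output lists, and in those of Dbp, Nr1d1, Usp2 and Avpr1a none of these 3 motifs was found, which says only that the letters are not in these windows.

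Over all genes tested that had a window, 11.2% held an E-box, 0.794% a D-box and 15.8% an AGGTCA site in at least 1 window. Of the called genes that rose, 82 had a window, and an E-box was found in 16, a D-box in 0 and an AGGTCA site in 20. Of those that fell, 36 had a window, and the E-box was found in 4, the D-box in 2 and the AGGTCA site in 7. The other 3 motifs were searched in the same way. The CCAAT box was found in 47 of the genes that rose and 17 of those that fell, against 41.6% of genes tested. The cyclic AMP response element TGACGTCA was in 2 and 2, against 3.27%, and the heat shock element pair GAANNTTC was in 5 and 2, against 7.14%. These are descriptions of letters, and the E-box and AGGTCA letters can overlap other motifs that were not searched.

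In the core loop, both subunits of the activator and 1 cryptochrome rose. Arntl, which encodes the BMAL1 subunit of the activator, had levels of 8.32, 8.76 and 8.71 at ZT16, against 7.51, 6.99 and 6.62 at ZT12. Every ZT16 sample was above every ZT12 sample, and the difference of 1.56 (SE 0.20, adjusted p = 3.24e-05 by limma) was the largest rise of all genes called. Clock, its partner, stood at 10.11, 10.04 and 10.09 at ZT16 and at 9.59, 9.48 and 9.49 at ZT12, a rise of 0.56 (SE 0.10, adjusted p = 0.0021 by limma). The 3 samples of each time lay within a narrow band for Clock and the bands were clearly apart. Cry1, a cryptochrome that inhibits the activator late in its cycle, read 8.37, 8.54 and 8.52 at ZT16 against 7.97, 7.83 and 7.45 at ZT12. It rose by 0.73 (SE 0.12, adjusted p = 0.0012 by limma), and these 3 genes were the only members of the 15 tested core clock genes that rose. The calls of Arntl, Clock and Cry1 held in every alternative fit.

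The repressors of the REV-ERB and CHRONO group fell over the same 4 h. Ciart, which encodes CHRONO, a repressor of the CLOCK and ARNTL complex, had levels of 6.83, 6.93 and 6.89 at ZT16, against 9.02, 8.82 and 9.43 at ZT12. Its fall by 2.21 on the log2 scale (SE 0.28, adjusted p = 2.31e-05 by limma), or 4.61-fold, was the largest change in either direction among called genes. Nr1d1, which encodes REV-ERB alpha, read 7.14, 7.69 and 7.21 at ZT16 against 8.60, 8.74 and 8.93 at ZT12, and fell by 1.41 (SE 0.26, adjusted p = 0.0034 by limma). The lowest ZT12 sample was far above the highest ZT16 sample in both genes. Nr1d2, encoding REV-ERB beta, changed less, with 9.16, 9.27 and 9.21 at ZT16 and 9.91, 9.93 and 9.91 at ZT12, a fall by 0.70 (SE 0.17, adjusted p = 0.0292 by limma). Per3, a period gene, read 7.81, 8.10 and 7.83 at ZT16 against 8.49, 8.36 and 8.57 at ZT12. It fell by 0.56 (SE 0.14, adjusted p = 0.0466 by limma). Leaving out any 1 of the 6 arrays ended the calls of Nr1d2 and Per3, with adjusted p up to 0.132 and 0.254, while those of Ciart and Nr1d1 held in every alternative fit.

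The other 8 tested core clock genes were not called. Per1, another period gene, read 7.82, 7.91 and 7.87 at ZT16 against 8.61, 8.10 and 8.34 at ZT12, with a difference of -0.48 (adjusted p = 0.366 by limma), although the groups did not overlap. Bhlhe41, a basic helix-loop-helix repressor, read 5.57, 5.98 and 5.87 at ZT16 against 6.20, 6.30 and 6.43 at ZT12, a difference of -0.50 with an adjusted p of 0.175 by limma. In Per2, Cry2, Rora, Bhlhe40, Csnk1d and Csnk1e the groups overlapped, with differences of -0.13, 0.01, 0.02, 0.06, 0.15 and 0.18. With 7 of 15 members called, the core clock list stood against 1.04% of all genes tested. Its median difference was 0.01, as in all genes, because it holds members that moved each way.

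Among the 19 tested clock output genes, 2 rose and 4 fell, beside 0.731% and 0.308% of all genes tested. Dbp, the PAR bZIP factor that acts on D-boxes, read 7.95, 7.81 and 7.72 at ZT16 against 9.39, 9.55 and 9.65 at ZT12. It fell by 1.70 (SE 0.17, adjusted p = 5.23e-07 by limma), with the 2 groups well apart. Nfil3, which encodes E4BP4, a repressor at the same D-boxes, rose by 0.62 (SE 0.14, adjusted p = 0.0252 by limma), with 8.45, 8.77 and 8.70 at ZT16 against 8.27, 7.98 and 7.81 at ZT12. Thus the transcript of a D-box activator fell while that of a D-box repressor rose. Usp2, a deubiquitinase, read 9.36, 9.13 and 8.98 at ZT16 against 9.98, 10.03 and 10.09 at ZT12, and fell by 0.87. Coq10b, a coenzyme Q binding protein, fell by 0.62 and Upp2, a uridine phosphorylase, fell by 0.54. Avpr1a, the vasopressin V1a receptor, rose by 1.36 (SE 0.27, adjusted p = 0.00648 by limma), with 8.55, 8.65 and 9.16 at ZT16 against 7.72, 7.09 and 7.47 at ZT12. Its call was lost without ZT16 replicate 3 or ZT12 replicate 2 (adjusted p up to 0.101). Of 19 alternatives, Coq10b lost its call in 4, Nfil3 in 5, Usp2 in 7 and Upp2 in 8, and Dbp in none.

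The PAR bZIP relatives of Dbp were not called. Tef had a difference of -0.29 (adjusted p = 0.407 by limma) and Hlf one of -0.12. Rgs16, a regulator of G protein signalling, had the second largest difference of all these genes, -1.92, and was not called, with an adjusted p of 0.212 by limma. Its levels were 7.38, 8.03 and 7.99 at ZT16 against 9.01, 9.53 and 10.61 at ZT12. The groups did not overlap, and the ZT12 samples spread over a wide range. Pdk4, a kinase that inhibits pyruvate dehydrogenase, was likewise higher in each ZT16 sample, with a difference of 1.05 and an adjusted p of 0.209.

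**Figure D2:**
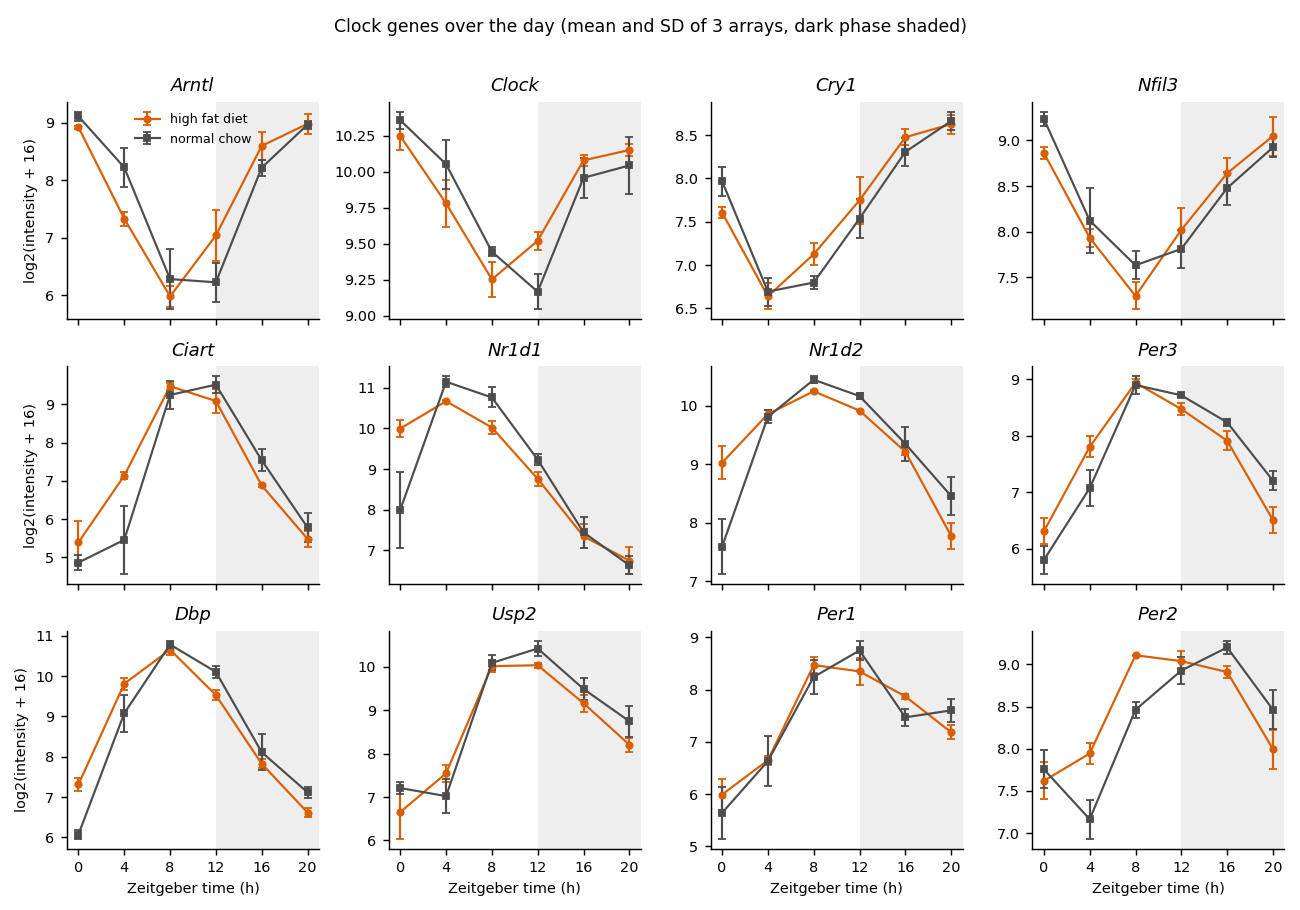
Group means of clock genes over the 6 collection times on the high fat diet and on normal chow, with log2(intensity + 16) on the vertical axis, hours from lights on along the horizontal axis and bars of 1 SD (n = 3). Between ZT12 and ZT16, Arntl and Cry1 climb while Ciart, Nr1d1 and Dbp decline on both diets.

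Over the full day, the step was part of a longer movement in most of these genes. The means of Arntl on the high fat diet were 8.92, 7.33, 5.98, 7.04, 8.60 and 8.98 from ZT0 to ZT20, so its lowest mean was at ZT8 and the step to ZT16 was its largest 4 h rise from ZT8 on. Dbp ran the other way, with 7.31, 9.81, 10.66, 9.53, 7.83 and 6.62, highest at ZT8 and lowest at ZT20. Ciart averaged 5.39, 7.14, 9.47, 9.09, 6.88 and 5.49 over the same times. Its change from ZT8 to ZT12 was -0.39 and that from ZT16 to ZT20 was -1.40, beside -2.21 for the step between them. Per2 differed in shape, since its means at ZT8, ZT12 and ZT16 were 9.11, 9.04 and 8.91 and its change to ZT20 was -0.91. Adjacent steps share arrays with the ZT16 and ZT12 groups, and no test was made between them.

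Genes of glycogen and lipid handling were among the largest changes. Ppp1r3c, which encodes a subunit that targets protein phosphatase 1 to glycogen and favours glycogen synthesis, read 9.91, 10.30 and 10.33 at ZT16 against 8.80, 8.89 and 8.63 at ZT12. Its rise of 1.41 (SE 0.23, adjusted p = 0.000736 by limma) was 2.65-fold and the second largest. Lpin1, the lipin 1 phosphatidate phosphatase of triglyceride synthesis, moved the other way. It read 10.03, 9.76 and 9.75 at ZT16 against 11.59, 11.22 and 11.86 at ZT12, and fell by 1.71 (SE 0.24, adjusted p = 0.000101 by limma), or 3.27-fold. Lpin2, its relative, fell by 0.53 (SE 0.12, adjusted p = 0.0252 by limma). Elovl3, an elongase of very long chain fatty acids, read 12.29, 12.54 and 12.64 at ZT16 against 11.75, 11.50 and 11.49 at ZT12, and rose by 0.91 (SE 0.15, adjusted p = 0.000644 by limma). Lpin2 lost its call in 6 of 19 alternatives, and Ppp1r3c, Lpin1 and Elovl3 in none.

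These were the only calls in their lists, beside 0.731% of all genes called higher and 0.308% called lower. In the 29 tested genes of fatty acid and triglyceride synthesis, Elovl3 rose, Lpin1 and Lpin2 fell, and 24 of the 29 differences were below 0, with a median of -0.13. Fasn, Acaca and Scd1, the main synthetic enzymes, had differences of -0.17, -0.06 and -0.08. In the 21 tested genes of glycolysis and glycogen, Ppp1r3c was the 1 gene called and the median difference was -0.03. Ppp1r3b and Ppp1r3g, other glycogen-targeting subunits, had differences of 0.06 and -0.25, and Gys2, liver glycogen synthase, had one of -0.03.

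Chka, choline kinase alpha, which starts phosphatidylcholine synthesis from choline, read 8.82, 9.01 and 9.0 at ZT16 against 7.71, 7.75 and 7.82 at ZT12, a rise of 1.18 (SE 0.17, adjusted p = 0.000132 by limma). Gpcpd1, a phosphodiesterase that cleaves glycerophosphocholine, fell by 0.94 (SE 0.22, adjusted p = 0.033 by limma), with 9.51, 9.41 and 9.59 at ZT16 and 10.27, 10.26 and 10.78 at ZT12. Abcg8, a subunit of the sterol exporter to bile, fell by 0.57 (adjusted p = 0.03 by limma). It was the 1 gene called among 29 tested for bile acid synthesis and transport, beside 0.308% of all genes called lower. Of the 29 differences, 20 were above 0, beside 7395 of 13956 over all genes. Gpcpd1 and Abcg8 each lost the call in 6 of 19 alternatives, and Chka in none.

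Several other large rises had roles in mitochondria, transport and cell contacts. Clpx, the unfoldase of a mitochondrial matrix protease, read 10.58, 10.74 and 10.77 at ZT16 against 9.73, 9.64 and 9.53 at ZT12, a rise of 1.06 (SE 0.13, adjusted p = 1.56e-05 by limma). Coq8a, needed for coenzyme Q synthesis, rose by 0.77 (SE 0.08, adjusted p = 1.2e-06 by limma), with 10.84, 10.96 and 10.94 at ZT16 against 10.19, 10.16 and 10.08 at ZT12. Both genes were tight within each time. Slc30a10, a manganese exporter, rose by 0.99 and Cldn1, a tight junction claudin, by 0.97. Tjp3, a scaffold of tight junctions, rose by 0.52 (SE 0.10, adjusted p = 0.00474 by limma). Cgn and Pard6b, chosen after their values were seen because they too encode junction and polarity proteins, rose by 0.47 and 0.35. The rest of the 15 largest rises comprised Tnfaip2 (0.97), Pde9a, a cyclic GMP phosphodiesterase (0.84), Dtx4, a Deltex ubiquitin ligase (0.81), Fam89a (0.78) and Efna1, an ephrin ligand (0.73). Tnfaip2 lost its call in 3 of 19 alternatives, Fam89a in 5, Pard6b in 6, and Cgn and Efna1 in 7 each.

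On the falling side, Zbtb16, a zinc finger transcription factor induced by glucocorticoids, read 8.28, 8.51 and 7.89 at ZT16 against 9.87, 9.60 and 9.72 at ZT12. It fell by 1.5 (SE 0.29, adjusted p = 0.00454 by limma), and the adjusted p was 0.0655 without ZT16 replicate 3. Zbtb16 was the 1 gene called among 20 tested targets of the glucocorticoid receptor, beside 0.308% of all genes called lower. Of the 20, 15 had differences below 0, with a median of -0.18. At an unadjusted p under 0.05, 7 were lower, beside 3.32% of all genes. On chow, 9 of the 20 were called lower at the same step, beside 1.61% of all genes. There 19 had differences below 0, beside 7483 of 13956 over all genes, with a median of -0.56. Cebpb, a bZIP factor of the liver, fell by 0.77 (SE 0.16, adjusted p = 0.00862 by limma). It was the 1 call among 20 tested genes of the ATF4 response, beside 0.308% of all genes called lower. Nrg4, a secreted ligand, fell by 0.74, and Erbb4, which encodes the receptor it binds, fell by 0.61, a gene picked out after its values were seen. Mknk2, a kinase of the translation factor eIF4E, fell by 0.81, Tox, an HMG box protein, by 0.79 and St3gal5, the ganglioside GM3 synthase, by 0.75. Of 19 alternatives, Cebpb lost its call in 2, St3gal5 in 5, Erbb4 in 7 and Nrg4 in 9.

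Among the genes of the heat shock list 2 rose, and most of the other differences lay above 0. Hsp90aa1, the inducible cytosolic HSP90, read 10.99, 10.88 and 11.13 at ZT16 against 10.22, 10.56 and 10.26 at ZT12, a rise of 0.65 (SE 0.15, adjusted p = 0.0184 by limma). Stip1, the cochaperone that links HSP70 to HSP90, rose by 0.36 (SE 0.09, adjusted p = 0.0397 by limma). These were the 2 calls among 32 tested heat shock genes, beside 0.731% of all genes called higher. Of the 32, 29 had differences above 0, and 15 were higher at an unadjusted p under 0.05, beside 7.29% of all genes, with a median of 0.17. On chow, 13 of the 32 were called higher at the same step, beside 2.07% of all genes. Hspb1, Hsph1 and Hspa4l, with differences of 0.72, 0.63 and 0.48 on the high fat diet, had adjusted p of 0.0789, 0.172 and 0.0629. The diet difference in the step was not called by limma for any member of the list. Of the 32 diet differences, 26 were below 0, beside 6291 of 13956 over all genes, with a median of -0.12. At an unadjusted p under 0.05, 8 were more negative on the high fat diet, beside 1.95% of all genes.

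In the endoplasmic reticulum, 2 of 26 tested chaperone and unfolded protein response genes rose, beside 0.731% of all genes. Hspa5, the chaperone BiP, read 11.98, 11.95 and 12.06 at ZT16 against 11.50, 11.70 and 11.41 at ZT12, a rise of 0.46 (SE 0.11, adjusted p = 0.04 by limma). Manf, a secreted stress protein of that compartment, rose by 0.54 (SE 0.13, adjusted p = 0.0252 by limma). In all, 23 of the 26 differences were above 0, with a median of 0.16. On chow, 8 of the 26 were called higher, beside 2.07% of all genes. Creld2 and Sdf2l1 had larger differences, 0.85 and 0.79, and were not called; in both, ZT12 replicate 2 lay close to the ZT16 values. Stip1 and Hspa5 each lost the call in 9 of 19 alternatives, Hsp90aa1 in 4 and Manf in 5.

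**Figure D3:**
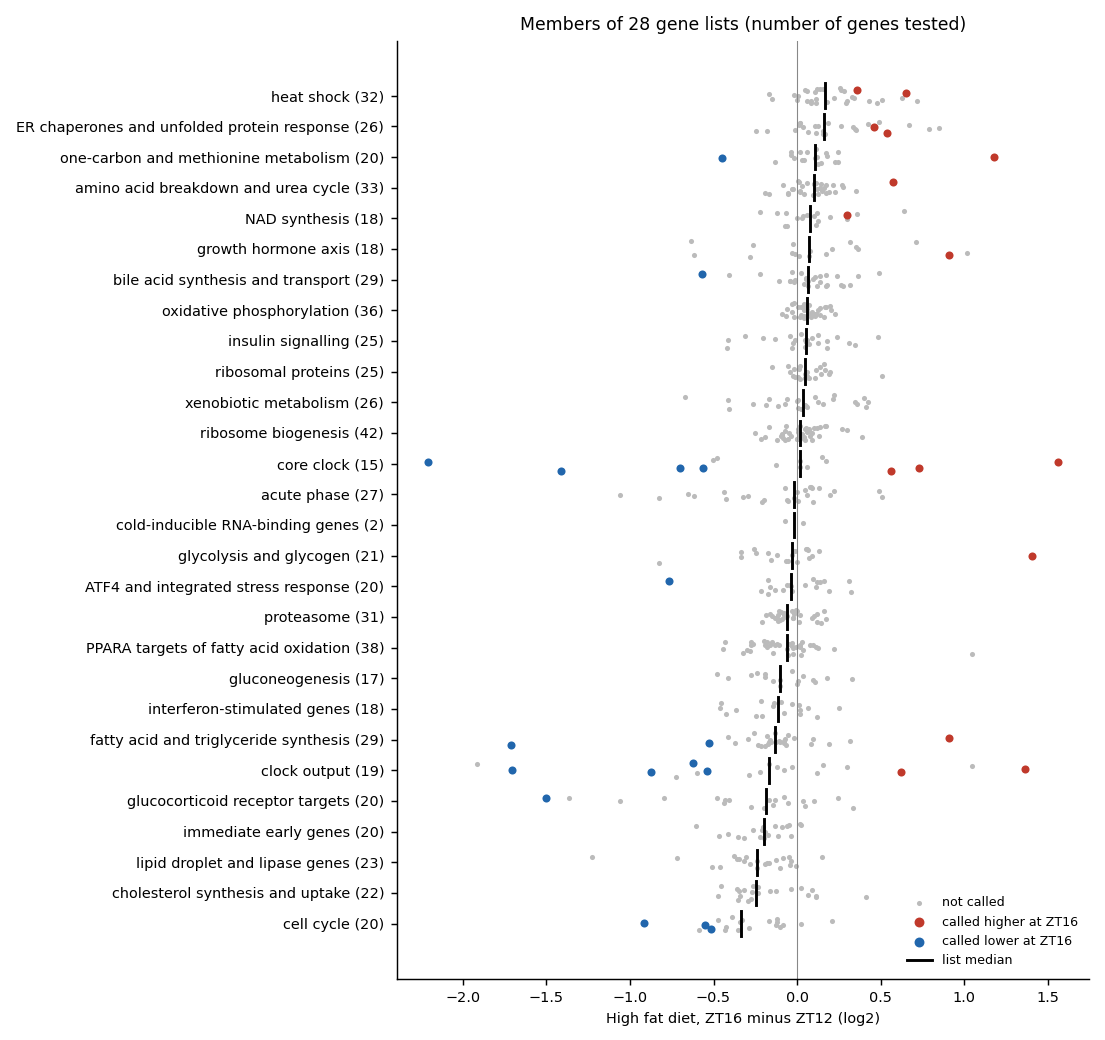
Differences between ZT16 and ZT12 on the high fat diet for the members of the 28 gene lists, ordered by median, with 1 point per tested gene on a log2 axis, called genes in red (higher at ZT16) or blue (lower) and the list median as a black bar. The replication and cell cycle genes lie mostly below 0, with a median of -0.34, and the heat shock genes mostly above it, with a median of 0.17.

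Subunits of the replication helicase were among the genes that fell on the high fat diet. Mcm6, a subunit of the replicative helicase, read 6.65, 6.85 and 6.64 at ZT16 against 7.56, 7.95 and 7.36 at ZT12, a fall by 0.91 (SE 0.20, adjusted p = 0.0181 by limma). Mcm5, of the same complex, read 6.89, 6.85 and 6.91 at ZT16 against 7.17, 7.70 and 7.42 at ZT12, a fall by 0.55. Mcm2, also a helicase subunit, read 6.87, 6.90 and 6.84 at ZT16 against 7.03, 7.74 and 7.39 at ZT12, a fall by 0.51. The ZT16 samples were close together and the ZT12 samples were spread, with replicate 2 the highest in all 3 genes. Leaving out ZT12 replicate 2 ended the 3 calls, and so did leaving out ZT16 replicate 1 or ZT16 replicate 3, with adjusted p up to 0.141 for Mcm6, 0.173 for Mcm5 and 0.269 for Mcm2. The calls of Mcm5 and Mcm2 were also lost without ZT16 replicate 2 or ZT12 replicate 3.

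These 3 were the calls among 20 tested cell cycle genes, beside 0.308% of all genes called lower. Of the 20, 18 had differences below 0, and 11 were lower at an unadjusted p under 0.05, beside 3.32% of all genes. The list's median was -0.34, beside 0.01 over all genes. Mcm3, Mcm4 and Mcm7 had differences of -0.33, -0.35 and -0.13 and Rrm1, a ribonucleotide reductase subunit, one of -0.47, none of them called. Another 2 called genes with a role in replication lay outside the list and were noticed after their values were seen: Chaf1b, of the chromatin assembly factor, fell by 0.51 and Pole, the catalytic subunit of DNA polymerase epsilon, fell by 0.47. Chaf1b lost its call in 7 and Pole in 13 of 18 alternatives. The genes of mitosis in the list, Cdk1, Ccnb2, Ccna2 and Cdc20, had differences of -0.43, -0.12, -0.12 and -0.10.

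Mcm6 stood highest at ZT12 of the 6 times on the high fat diet, with means of 6.98, 7.01, 6.52, 7.63, 6.71 and 6.68 from ZT0 to ZT20. On chow its means were 6.63, 6.57, 6.65, 6.82, 6.83 and 6.68 over those times. The step was -0.91 on the high fat diet and 0.01 on chow for Mcm6, -0.51 and 0.19 for Mcm2, and -0.55 and -0.09 for Mcm5. The difference between the diets had adjusted p of 0.739, 0.415 and 0.811 by limma, so a diet effect on the step was not called for any of the 3. Of the 20 cell cycle genes, 8 had a more negative step on the high fat diet at an unadjusted p under 0.05, beside 1.95% of all genes. The 95% interval of the diet difference ran from -1.51 to -0.34 for Mcm6, from -1.06 to -0.35 for Mcm2 and from -0.81 to -0.10 for Mcm5. These intervals are for single genes and are not adjusted for the number of genes tested, so they do not show a diet difference.

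**Figure D4:**
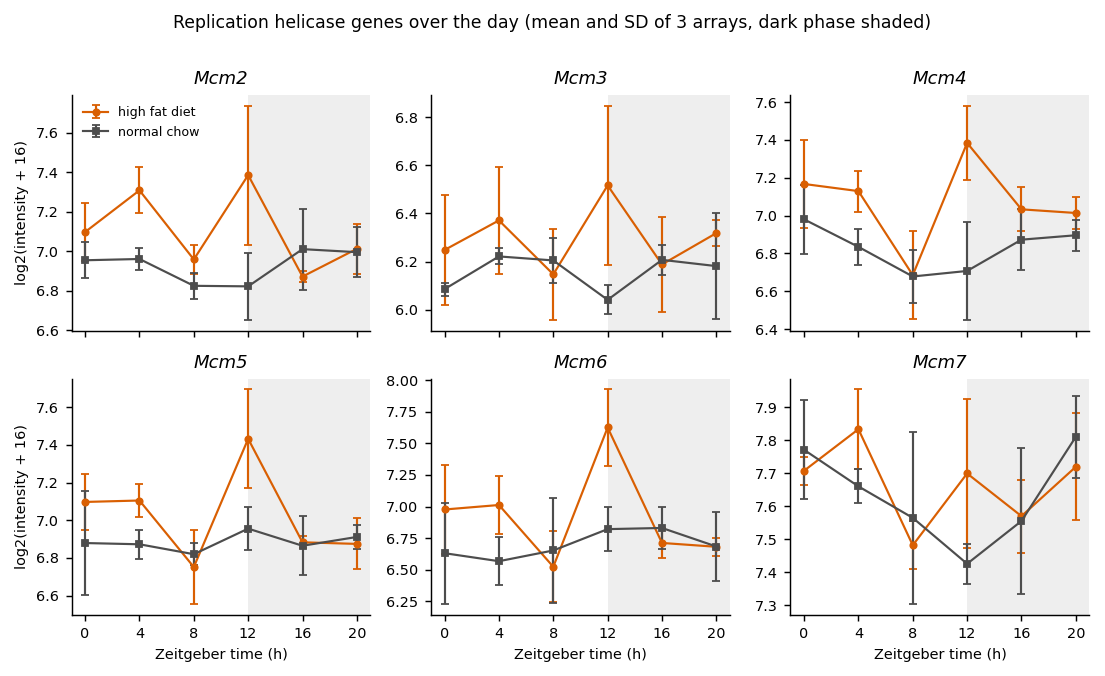
Group means of 6 replication helicase genes at the 6 collection times on the high fat diet and on chow, in log2(intensity + 16) on the vertical axis and hours from lights on along the horizontal axis, with bars of 1 SD (n = 3) and the dark phase shaded. ZT12 on the high fat diet is the highest group for Mcm6, Mcm5 and Mcm2, and its SD there is larger than at ZT16.

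Most metabolic and stress lists held no called gene on the high fat diet. This was so for the lists of cholesterol synthesis, PPARA targets, lipid droplets and lipases, gluconeogenesis, insulin signalling and xenobiotic metabolism. It was so as well for ribosomal proteins, ribosome biogenesis, the proteasome, oxidative phosphorylation, interferon-stimulated genes, the acute phase, immediate early genes and cold-inducible RNA-binding genes. Over all genes tested, 7.29% were higher and 3.32% lower at an unadjusted p under 0.05 by limma. By that measure the numbers higher and lower were 1 and 2 of 22 for cholesterol synthesis and 1 and 3 of 38 for PPARA targets. They were 0 and 4 of 23 for lipid droplets and 0 and 3 of 20 for immediate early genes. They were 5 and 0 of 36 for oxidative phosphorylation, 1 and 5 of 18 for interferon-stimulated genes, and 1 and 3 of 27 for the acute phase. In the lipid droplet list, 22 of 23 differences were below 0, beside 6561 of 13956 over all genes, with a median of -0.24. Cidec, a lipid droplet fusion protein, had the largest, -1.23, with 7.70, 7.85 and 7.14 at ZT16 against 8.22, 9.06 and 9.09 at ZT12 and an adjusted p of 0.306 by limma.

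The other lists without a call are given beside the same 7.29% higher and 3.32% lower of all genes. Their unadjusted numbers higher and lower were 1 and 2 of 17 for gluconeogenesis, 3 and 2 of 25 for insulin signalling and 4 and 1 of 26 for xenobiotic metabolism. They were 1 and 0 of 25 for ribosomal proteins, 2 and 1 of 42 for ribosome biogenesis, 1 and 1 of 31 for the proteasome, and 0 and 0 of 2 for the cold-inducible genes. Of 33 tested genes of amino acid breakdown, only Gldc, the glycine decarboxylase, was called, with a rise of 0.58 (adjusted p = 9.94e-05 by limma). Of 18 tested genes of NAD synthesis, only Kynu, kynureninase, was called, with a rise of 0.30. Of 20 tested in one-carbon metabolism, Mthfd1l, a mitochondrial folate enzyme, fell by 0.45, while Chka, which that list shares, rose. Over all genes tested, 0.731% were called higher and 0.308% lower. Kynu lost its call in 11 of 19 alternatives and Mthfd1l in 7 of 18, and Gldc in none. Of the 18 tested genes of the growth hormone axis, Elovl3 alone was called, beside 0.731% of all genes called higher.

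All 13 hepatocyte genes on the array were above the filter level on average. So were all 20 endothelial markers, so passing that level does not test the liver label. The summed intensity of the hepatocyte genes was 82202 to 87081 at ZT16 and 79834 to 85685 at ZT12. None of the 10 lists of cell type markers held a called gene by limma. At an unadjusted p under 0.05, 7.29% of all genes were higher and 3.32% lower. The lists with any such gene were the endothelial (2 of 20 higher), stellate cell (1 of 20 higher), lymphocyte (1 of 7 lower), adipose (2 of 7 lower), and pancreas, gut and muscle list (1 of 9 lower). Summed endothelial markers were 9436 to 11006 at ZT16 and 6452 to 9639 at ZT12, and 18 of their 20 differences were above 0. Summed stellate cell and matrix markers were 10155 to 10992 at ZT16 and 8222 to 10502 at ZT12, with 12 of 20 above 0. Summed adipose markers did not overlap, with 1461 to 1588 at ZT16 and 1763 to 2037 at ZT12, and 7 of 7 tested were below 0. The largest of these falls was that of Pnpla2, -0.36, and a summed intensity weighs bright genes most. Adipoq and Lep, which define fat cells, were under the filter level. On chow the summed adipose markers did not overlap either, with 1490 to 1775 at ZT16 and 2005 to 2247 at ZT12. There, 5 of the 7 differences were above 0, beside 6473 of 13956 over all genes. Summed T, NK and B cell markers were 1007 to 1134 at ZT16 and 1080 to 1335 at ZT12, with 9 of 16 under the filter level. The part of these shifts in the changes above was not tested. In bulk liver, fewer cells of a type and less RNA per cell cannot be told apart.

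The same step on chow called 289 genes higher and 225 lower, which is 2.07% and 1.61% of genes tested, or 3.68% either way. The chow arrays are separate from the high fat diet arrays, so no array enters both differences. Both steps share the filter and the estimate of each gene's spread, so the 2 sets of calls are not independent. Of the 102 genes that rose on the high fat diet, 100 were higher and 67 (65.7%) were called higher on chow. Of the 43 that fell, 38 were lower and 25 (58.1%) were called lower on chow. Read the other way, 67 of the 289 genes that rose on chow (23.2%) and 25 of the 225 that fell on chow (11.1%) were called on the high fat diet. No gene was called in opposite directions on the 2 diets.

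**Figure D5:**
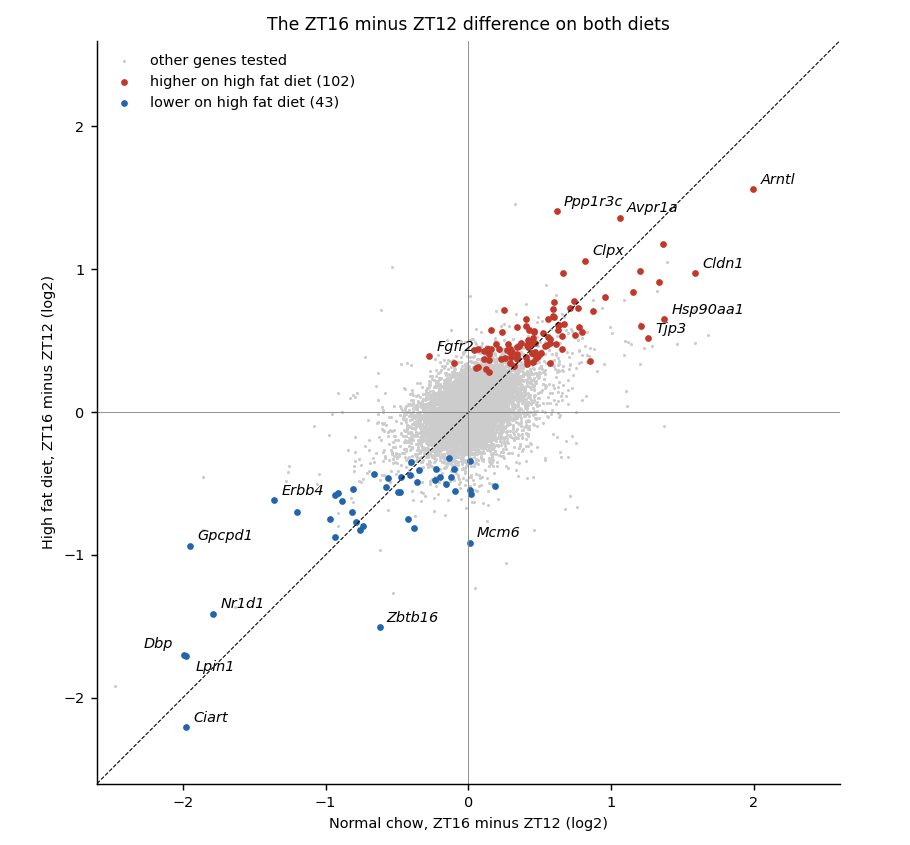
The ZT16 minus ZT12 difference of each tested gene on the high fat diet (vertical axis, log2) against the same difference on chow (horizontal axis, log2), with genes called on the high fat diet in colour and a dashed line of equality. The 102 genes that rose and the 43 that fell lie mostly in the quadrants of matching direction, and Fgfr2 lies to the left of 0 on chow.

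In 7 called genes the chow difference had the opposite sign, but in Gpr39, Mcm6, Psd4 and Ube2l6 it was only 0.01. The others were Fgfr2 (-0.27), Mcm2 (0.19) and Rcbtb1 (-0.10), and the diet difference was called for Fgfr2 alone. The estimated step also had unlike sizes on the diets in some genes, picked here after their values were seen. Ppp1r3c had a difference of 1.41 on the high fat diet and 0.62 on chow, and Zbtb16 one of -1.5 and -0.62. Gpcpd1 differed by -0.94 on the high fat diet and by -1.95 on chow, and Hsp90aa1 by 0.65 and 1.37. For Ppp1r3c, Zbtb16, Gpcpd1 and Hsp90aa1 the diet difference was not called, with adjusted p of 0.839, 0.934, 0.739 and 0.577 by limma. Their 95% intervals ran from 0.13 to 1.45, -1.71 to -0.05, 0.36 to 1.66 and -1.14 to -0.30. All such intervals are for single genes and are not adjusted for the number of genes tested, so they do not show a diet difference. For the core clock, the diet difference in the step of Arntl was -0.44, with an interval from -1.02 to 0.15, and that of Ciart was -0.23, from -1.04 to 0.58. For Per1, -0.48 on the high fat diet and -1.28 on chow, it was 0.80, from 0.20 to 1.40, with an adjusted p of 0.794.

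Only 1 gene was called for a diet difference in the step, 0.00717% of those tested, and 0 genes were called with a more negative step on the high fat diet. At an unadjusted p under 0.05 by limma, 448 genes (3.21%) had a more positive and 272 (1.95%) a more negative step on the high fat diet. The called gene was Fgfr2, a fibroblast growth factor receptor. It read 8.70, 8.59 and 8.73 at ZT16 against 8.30, 8.23 and 8.31 at ZT12 on the high fat diet, a rise of 0.39 (SE 0.08, adjusted p = 0.00921 by limma). On chow it read 8.62, 8.76 and 8.64 at ZT16 against 8.92, 9.09 and 8.84 at ZT12, a difference of -0.27 (adjusted p = 0.0536 by limma). So at ZT16 the diets overlapped, and at ZT12 the 3 high fat diet samples lay below the 3 chow samples. The difference between the steps was 0.67 (95% interval 0.43 to 0.90, adjusted p = 0.0332 by limma). With the replicate number as a block its adjusted p was 0.0505, and the call was lost in 13 of 24 alternatives, with adjusted p up to 0.322. Among these were the omission of ZT16 replicate 1 or 3 or ZT12 replicate 2 or 3 on the high fat diet, and of ZT16 replicate 1 or 3 or ZT12 replicate 1 or 2 on chow.

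Over the day, the mean level of Fgfr2 on the high fat diet was 8.82, 8.76, 8.82, 8.28, 8.67 and 8.75 from ZT0 to ZT20, with the low value at ZT12. The 3 smallest p for a step that was more negative on the high fat diet belonged to Tjp3, Lgalsl and Alpl, none of them called. For Tjp3 the step was 0.52 on the high fat diet and 1.26 on chow, a difference of -0.74 (adjusted p = 0.0922 by limma). Lgalsl, a galectin-like gene, had steps of 0.48 and 1.46, and Alpl, an alkaline phosphatase, had steps of -0.28 and 0.64.

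The position of the called genes in the chow day was read from the 18 chow arrays, whose levels do not enter the high fat diet difference, although they share the estimate of spread and the filter behind the calls. A fit of the high fat diet arrays alone kept 83 of the 102 higher and 31 of the 43 lower calls. Among the 102 genes that rose on the high fat diet, 62 had their highest chow mean at ZT0 and 74 their lowest at ZT12. Over all genes tested, 17.9% had their highest chow mean at ZT0 and 15.1% their lowest at ZT12. Among the 43 genes that fell on the high fat diet, 25 had their highest chow mean at ZT12 and 23 their lowest at ZT0, against 13.5% and 16.0% of all genes.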

How the data were processed

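Liver RNA of 36 samples was measured on Affymetrix whole-transcript arrays. The authors deposited a linear intensity for each of 35556 probe sets and array, made with Affymetrix Expression Console 1.1.1 and PLIER 2.0, as the submitters' processing notes list. How background was corrected and arrays were brought to a common scale was not given in the sources used here. No scanner values were used, and the number of arrays limits the precision.

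From the deposited intensities, log2(intensity + 16) was computed without further scaling. The platform annotation paired 21789 probe sets with 1 gene, 1621 with several and listed no gene for 12146, which stay unnamed; symbols were updated by entrez identifier for 99.6% of the first kind. Each of 19938 genes was represented by its brightest probe set, and genes above the 30th percentile of mean level were tested (13956). A limma 3.58.1 fit in R 4.3.3 had 1 mean per diet and time over all 36 arrays (24 residual degrees of freedom), and gave the ZT16 minus ZT12 step on each diet and the difference between the steps, each adjusted by Benjamini-Hochberg over all genes tested at 0.05. The fit was tested on simulated data with known changes.

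Named genes were the 15 largest rises and 15 largest falls among called genes, up to 4 called members of each list by p (where a list had none, its member with the smallest p could be named), every tested core clock gene, and, for the diet difference, called genes or else the 3 with the smallest p. Every other gene in the text, including further list members given for comparison, was chosen after its values were seen. The gene lists, 28 of functions and 10 of cell markers, are described by counts and medians without a set test. The comparison, lists and rule were chosen with earlier results of these data known. Alternatives changed the scaling, the offset, the filter, the probe set rule, the arrays in the fit, array weights, the variance prior, the threshold and the replicate block, and left out each array in turn.

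The deviations of same-numbered samples from their group means correlated at 0.17, -0.02 and 0.30 on the high fat diet and at 0.32, 0.38 and 0.20 on chow. Pairs of unlike number ranged from -0.36 to 0.20 on the high fat diet and from -0.35 to 0.01 on chow. The labels do not say what a number marks. Promoter windows are from RefSeq (GRCm38.p6).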

Additional observations from a re-analysis of the deposited data

Results flagged for a closer look

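The step across lights off differed between the diets by a test of that difference in Fgfr2, a fibroblast growth factor receptor. The ZT16 minus ZT12 difference was 0.39 on the high fat diet and -0.27 on chow, so the steps differed by 0.67 on the log2 scale (adjusted p = 0.0332 by limma). All 3 high fat diet samples were higher at ZT16 than at ZT12, and all 3 chow samples were lower. Of the 24 alternatives run for it, 13 ended the call, and each kept the direction.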

How the results depend on the processing

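The 102 higher and 43 lower calls on the high fat diet became 67 and 17 with median centring of each array, 45 and 11 at an adjusted p under 0.01, 30 and 18 with a 1.5-fold minimum, and 388 and 98 with array weights. A fit of only the arrays compared gave 63 higher and 39 lower. Leaving out 1 array at a time gave 36 to 103 higher and 10 to 30 lower. The chow counts of 289 and 225 became 155 and 102 at an adjusted p under 0.01, 102 and 62 with the 1.5-fold minimum, 466 and 508 with array weights, and 177 and 85 with only the arrays compared, and median centring gave 122 lower. Leaving out chow arrays gave 145 to 274 higher and 85 to 227 lower. These counts are lower in part by construction where fewer samples or a stricter threshold were used, and for the scaling and the weights the cause was not tested.

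The diet difference had 1 call, Fgfr2, and 0 with quantile normalization, median centring, no intensity filter, the replicate block or an adjusted p under 0.01. With only the arrays compared it again had 1 call, which was a gene other than Fgfr2. Array weights gave 5 genes more positive and 3 more negative on the high fat diet, and leaving out 1 array gave 0 to 1 and 0 to 2. With the replicate number as a block, the high fat diet step gave 112 higher and 42 lower and the chow step 299 and 215. An alternative chosen after seeing the data left out the 4 arrays of lowest quality weight, and gave 190 genes higher and 63 lower on the high fat diet, with 4 and 1 for the diet difference.

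No called gene changed direction. Of the uncalled genes that the naming rule covers, which alone were rerun, 5 turned sign in some fit. With quantile normalization Cry2 was at -0.025 and Rora at -0.0092. Leaving out 1 array gave -0.035 to 0.057 for Cry2, -0.018 to 0.044 for Rora, -0.012 to 0.116 for Bhlhe40, -0.185 to 0.062 for Rbm3 and -0.425 to 0.015 for Mpeg1. With 3 arrays per group, differences within the replicate spread were not detectable, and dim genes under the filter were not analysed here.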
